A study of Mus musculus with 2 samples.

Results

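The 7 genes described here encode secreted Wnt antagonists: Wif1, Sfrp1, Sfrp2, Sfrp4, Frzb, Dkk2 and Dkk3. They were chosen by symbol among the 32285 genes of the count matrices, and each symbol matched 1 gene ID. The study treated aged mice of the C57BL/6 strain with MVC (Maraviroc) or with the vehicle DMSO, both by intraperitoneal injection. Single-cell RNA-seq (10x Genomics) was then performed on live mononuclear cells of limb muscle, which had been sorted with a viability dye. There was 1 library per group, and the number of mice behind each library was not stated in the sources used here. The comparison of MVC with DMSO therefore had no replicate check, and each value below describes these 2 libraries only.

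Wnt ligands signal through Frizzled receptors and the co-receptors Lrp5 and Lrp6. Secreted frizzled-related proteins (Sfrp1, Sfrp2, Sfrp4 and Frzb) carry a domain like that of the Frizzled receptors and bind Wnt ligands outside the cell, as does Wnt inhibitory factor 1 (Wif1) with a domain of another kind. Dickkopf proteins act on the co-receptors instead, and Dkk3 is a divergent member of that family whose action on Wnt signalling is less settled. In muscle such antagonists are made mostly by connective tissue cells, including fibro-adipogenic progenitors (FAPs), the resident stromal cells of the tissue.

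On the GRCm38 build, Wif1 (ENSMUSG00000020218) lies on chromosome 10 from 121033960 to 121100650 on the plus strand. Sfrp1 (ENSMUSG00000031548) lies on chromosome 8 from 23411502 to 23449632, plus strand. Sfrp2 (ENSMUSG00000027996) lies on chromosome 3 from 83766321 to 83774316, plus strand. Dkk2 (ENSMUSG00000028031) shares that chromosome and strand, from 132085292 to 132180304. Sfrp4 (ENSMUSG00000021319) lies on chromosome 13 from 19623104 to 19632994, plus strand. Frzb (ENSMUSG00000027004) lies on chromosome 2 from 80411970 to 80447625, and Dkk3 (ENSMUSG00000030772) on chromosome 7 from 112116017 to 112159057, both on the minus strand. All 7 are protein-coding. Of the 31-base words in their transcripts, between 0% and 1.07% also occurred in transcripts of other genes. Sfrp2 alone was overlapped by another annotated gene, Gm26771 on the opposite strand, which had 67 UMIs (unique molecular identifiers, counted transcripts) in the DMSO and 58 in the MVC library.

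Promoter windows (RefSeq, GRCm38.p6; 250 bases before to 50 after the start) were found for 4 of the 7 members: Wif1, Sfrp2, Dkk2 and Frzb. Those of Wif1, Sfrp2 and Dkk2 are shown because these genes differed in their ratio within 1 tendon cell population, as described below. Capitals mark matches on either strand to CTTTGA (the core of TCF/LEF sites), CANNTG (the E-box) or TATAAA, and no matches overlapped in these windows.
Wif1, chr10:121033754-121034053, plus strand: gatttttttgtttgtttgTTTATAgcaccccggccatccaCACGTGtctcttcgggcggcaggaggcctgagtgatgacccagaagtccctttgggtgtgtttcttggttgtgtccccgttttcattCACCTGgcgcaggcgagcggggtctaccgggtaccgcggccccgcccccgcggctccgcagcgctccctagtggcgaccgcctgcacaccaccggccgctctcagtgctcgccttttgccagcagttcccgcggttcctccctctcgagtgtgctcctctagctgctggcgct
Sfrp2, chr3:83766071-83766370, plus strand: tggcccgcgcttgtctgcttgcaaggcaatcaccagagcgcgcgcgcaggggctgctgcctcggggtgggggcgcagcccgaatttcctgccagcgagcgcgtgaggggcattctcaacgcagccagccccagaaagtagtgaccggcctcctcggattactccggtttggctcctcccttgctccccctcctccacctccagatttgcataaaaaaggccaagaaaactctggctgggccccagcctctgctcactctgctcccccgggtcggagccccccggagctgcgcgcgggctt
Dkk2, chr3:132085042-132085341, plus strand: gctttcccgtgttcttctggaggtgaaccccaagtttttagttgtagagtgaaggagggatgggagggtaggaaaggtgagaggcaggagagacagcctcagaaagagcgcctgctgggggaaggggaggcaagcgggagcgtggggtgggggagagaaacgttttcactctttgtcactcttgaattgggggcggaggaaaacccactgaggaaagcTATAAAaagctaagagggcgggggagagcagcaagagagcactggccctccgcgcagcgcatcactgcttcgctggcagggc
Wif1 held an E-box at -210 and at -123 from the start and a TATAAA match at -232, Dkk2 a TATAAA match at -32, and Sfrp2 none of the motifs. Over 32851 promoter windows of this length, 16.0% held CTTTGA, 72.3% CANNTG and 13.6% TATAAA. These matches are a description of letters and not of binding.

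After the filter on cells (no fewer than 500 genes, and mitochondrial UMIs not above 10%), 5437 of 5812 barcodes remained in the DMSO and 5454 of 6047 in the MVC library, with medians of 5802 and 5195 UMIs. The libraries shared 9 barcodes. Clustering without the 7 members and the other Wnt genes gave 27 clusters, of which 25 were assigned to 14 cell classes by marker genes and 2 (315 cells) stayed unnamed. Clusters are called below by their class and their 2 leading genes, and "-like" marks that names were rebuilt from markers. FAP-like cells numbered 1176 and 1422 (DMSO and MVC), tenocyte-like (tendon) cells 462 and 530, and EC-like (endothelial) cells 2219 and 1892. The nerve sheath was represented by 99 and 127 Schwann-like and by 85 and 72 perineurial-like cells. Levels are UMIs per 1000000 UMIs of the same cells (CPM), which are not scaled by gene length, so they are compared between cells and not between genes. The 95% intervals cover counting error only and neither the spread between mice nor that between cells.

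The 7 antagonists had sharply different cellular sources. Wif1 was found almost wholly in 1 tendon cluster, Sfrp1 was highest in Schwann-like cells and also present in FAP-like cells, and Sfrp4 was mostly a FAP transcript. Sfrp2 was divided between FAP-like and tenocyte-like cells. Dkk2 was found in FAP-like cells, tendon cells and arterial endothelium. Dkk3 was highest in perineurial-like cells, and Frzb was scarce and highest in Schwann-like cells. B cell-like, T/NK-like and neutrophil-like cells were taken as a background for the members other than Dkk3. In DMSO their levels were 0 to 0.588 CPM for these 6 members and 3.82 CPM for Dkk3, over 465 cells. Of the 13 Dkk3 UMIs, 12 were in T/NK-like cells, at 6.92 CPM, so the pool was not a background for Dkk3. In the 200 such cells of MVC the levels were 0 to 5.63 CPM over all members, the highest being Sfrp4, with 8 UMIs in 4 cells.

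**Figure D1:**
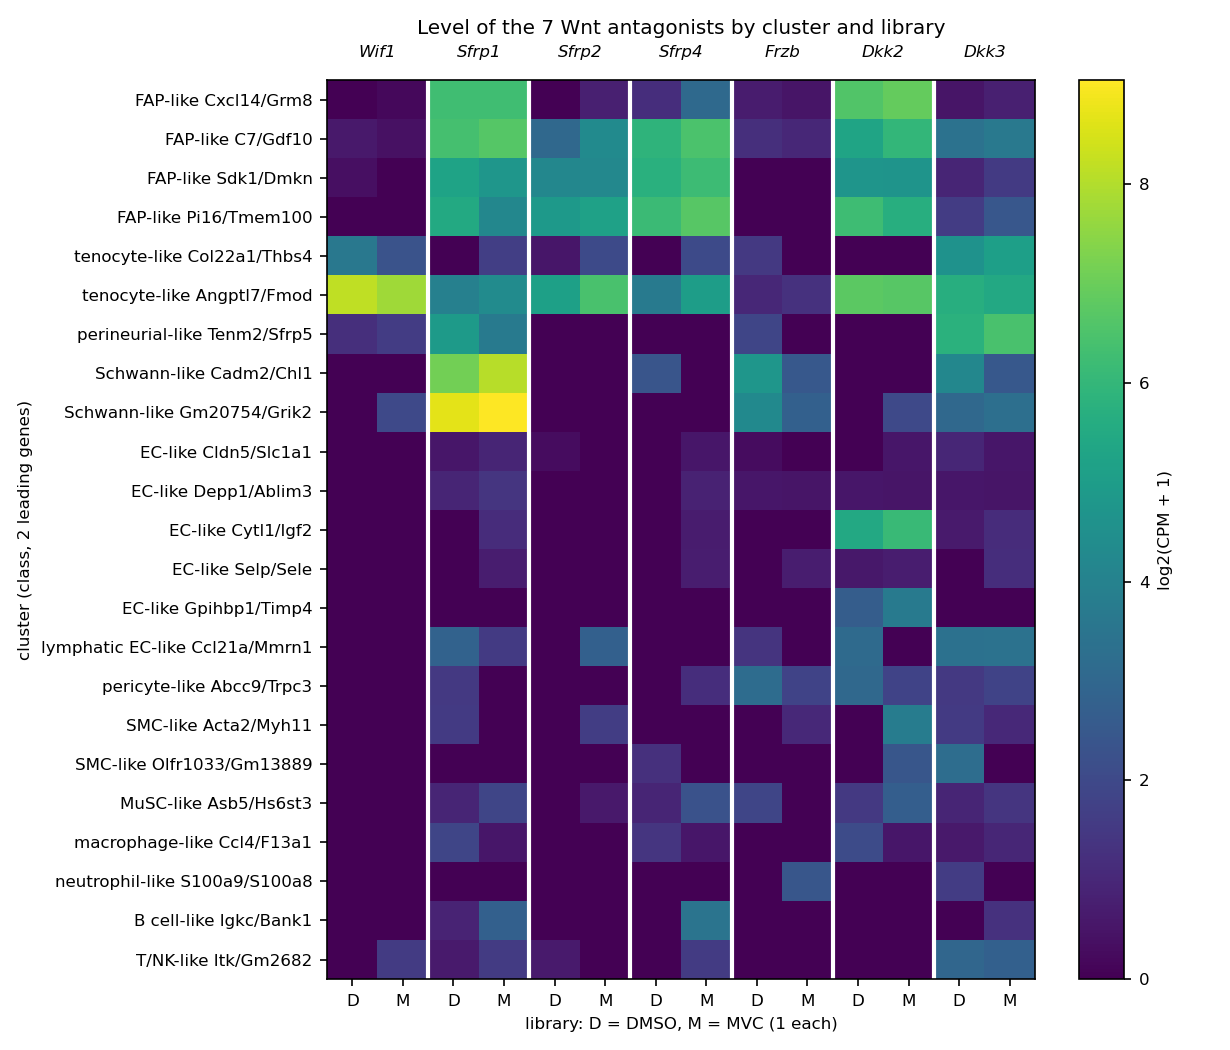
Level of each Wnt antagonist, as log2(CPM + 1), in the 23 named clusters of at least 50 cells (rows) and the DMSO (D) and MVC (M) libraries (columns). Wif1 stands out in the tenocyte-like Angptl7/Fmod cluster, Sfrp1 in the Schwann-like Gm20754/Grik2 cluster, where it reached 404 and 527 CPM, and Dkk2 among endothelial cells in the EC-like Cytl1/Igf2 cluster.

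Wif1 was a tenocyte transcript in both libraries. Tenocyte-like cells held 584 of its 589 UMIs in DMSO (99.2%) and 459 of 464 in MVC (98.9%). Within that class the gene was concentrated in the Angptl7/Fmod cluster, whose other leading genes included Kera and Comp, proteins of the tendon matrix. There it stood at 288 CPM in DMSO (95% interval 264 to 312) and at 213 in MVC (194 to 234). The Col22a1/Thbs4 cluster, marked by genes of the muscle-tendon junction, held 11.4 CPM in DMSO and 4.02 in MVC. Wif1 was among the leading genes of the Angptl7/Fmod cluster although it had not been used for clustering. Its ratio of MVC over DMSO was 0.748 in the tenocyte-like class (0.660 to 0.847), 0.742 in the Angptl7/Fmod cluster and 0.353 (0.145 to 0.781) in the Col22a1/Thbs4 cluster, so both clusters were lower in MVC.

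The lower Wif1 level was also seen as fewer positive cells. After thinning to 2000 UMIs per cell, 28.2% of the Angptl7/Fmod cells had a Wif1 UMI in DMSO (61 of 216, 22.3 to 34.8) and 20.8% in MVC (49 of 236, 15.8 to 26.5), and the intervals overlapped. The thinning left out 7 and 11 shallower cells, and median depths before it were 8433 and 8041 UMIs. Unthinned, the shares were 48.9% and 41.7%. No B cell-like, T/NK-like or neutrophil-like cell had a Wif1 UMI at this depth, of 460 cells in DMSO (0 allows a share of up to 0.652%) and of 180 in MVC (up to 1.67%).

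Sfrp1 came mainly from FAP-like and Schwann-like cells. FAP-like cells held 830 of 1043 UMIs in DMSO and 907 of 1216 in MVC, while the few Schwann-like cells held 143 and 236. Per UMI sequenced, Schwann-like cells stood at 244 CPM in DMSO and 345 in MVC, against 64.8 and 66.6 in FAP-like cells, and the intervals of the classes did not overlap in either library. Perineurial-like cells followed with 29.8 CPM in DMSO and 12.4 in MVC, and tenocyte-like cells with 6.76 and 10.6.

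Within the Schwann-like class Sfrp1 varied between clusters. It was at 404 CPM in DMSO and 527 in MVC in the Gm20754/Grik2 cluster, and at 137 and 266 in the Cadm2/Chl1 cluster. In the Gm20754/Grik2 cluster 29 of 35 DMSO cells and 43 of 49 MVC cells had a Sfrp1 UMI, and at 2000 UMIs per cell 17 of 34 and 29 of 45 cells did. The class ratio of MVC over DMSO was 1.42 (1.15 to 1.75), with 1.94 in the Cadm2/Chl1 and 1.30 in the Gm20754/Grik2 cluster. In the same class the summed level of 7 neutrophil markers was 5.11 CPM in DMSO and 544 in MVC, and that of 12 FAP markers 3552 and 1866 CPM. Their part in the ratio was not tested.

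Over all genes tested in FAP-like cells the median ratio of MVC over DMSO was 1.09 (0.13 on the log2 scale), against which ratios in this class are to be read. The pooled Sfrp1 ratio there was 1.03 (0.934 to 1.13), or 0.941 relative to that median, and the 4 clusters differed in direction. In the Cxcl14/Grm8 cluster, which carried the parenchymal markers Smoc2 and Cxcl14, Sfrp1 was at 76.0 CPM in DMSO and 76.4 in MVC. In the C7/Gdf10 cluster it was at 81.8 and 98.98 CPM (ratio 1.21, 1.03 to 1.42), or 1.08 without the 3 highest cells of each library. Both clusters with high Pi16, a marker of adventitial FAPs, were lower in MVC, with 36.5 and 25.9 CPM in Sdk1/Dmkn (ratio 0.709, 0.520 to 0.960) and 43.6 and 17.0 CPM in Pi16/Tmem100 (ratio 0.390, 0.214 to 0.685). The difference between these ratios was not tested.

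Sfrp4 followed another order within the FAP-like class. Its level in DMSO was 71.6 CPM in Pi16/Tmem100, 58.1 in C7/Gdf10, 52.3 in Sdk1/Dmkn and 1.26 in Cxcl14/Grm8, and the first 3 had overlapping intervals. In MVC these clusters stood at 101.9, 87.7, 71.7 and 7.48 CPM, so that Sfrp4 was higher in MVC in each of the 4. The ratios were 1.42, 1.51, 1.37 and 5.94, and all 4 intervals lay above 1. In the Cxcl14/Grm8 cluster the difference rested on 6 UMIs in 5 of 466 cells against 51 UMIs in 15 of 731 cells, and the MVC level of 7.48 CPM (5.57 to 9.83) overlapped the 5.63 CPM (2.43 to 11.1) of the B cell-like, T/NK-like and neutrophil-like cells of that library. That level rested on 8 UMIs in 4 cells, and the 1892 EC-like cells of MVC, with 5 UMIs, stood at 0.632 CPM (0.205 to 1.48). In the class as a whole Sfrp4 was at 36.4 CPM in DMSO and 45.5 in MVC (ratio 1.25, 1.11 to 1.41), and with clusters weighted as in DMSO the ratio was 1.502. Relative to the median of all genes the class ratio was 1.15. The Cxcl14/Grm8 cluster, which hardly contained Sfrp4, made up 466 of 1176 FAP-like cells in DMSO and 731 of 1422 in MVC.

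Sfrp2 had no UMI in the 466 Cxcl14/Grm8 FAP-like cells of DMSO and 5 UMIs in the 731 of MVC, and otherwise shared its FAP clusters with Sfrp4. It stood at 28.0 CPM in DMSO and 34.9 in MVC in Pi16/Tmem100, at 17.2 and 17.7 in Sdk1/Dmkn, and at 7.29 and 19.3 in C7/Gdf10. Among whole FAP-like clusters, the latter was the one where the libraries stood apart, with a ratio of 2.64 (1.65 to 4.34). It rested on 27 UMIs in 18 cells against 58 UMIs in 19 cells, and without the 3 cells with most Sfrp2 UMIs in each library the ratio was 1.88. In the pooled FAP-like class the ratio was 1.25 (0.972 to 1.61). At a finer resolution of the clustering, Sdk1/Dmkn held a subcluster led by Sdk1 and Has1 with 13 and 29 UMIs (ratio 2.48, 1.25 to 5.20). Its subcluster led by Dmkn and Sbsn had 45 and 18 UMIs (ratio 0.754, 0.411 to 1.33). The latter subcluster made up 25.2% of the cluster's cells in DMSO and 17.7% in MVC.

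Tenocyte-like cells gave the larger part of the Sfrp2 difference. The class held 68 Sfrp2 UMIs in 26 of 462 DMSO cells and 188 UMIs in 44 of 530 MVC cells, or 16.4 and 43.2 CPM. The ratio was 2.63 (1.98 to 3.53). A single MVC cell held 53 of these UMIs, and without the 3 highest cells of each library the ratio was 2.52. At 2000 UMIs per cell, 2.23% of the DMSO (10 of 448, 1.07 to 4.07) and 4.73% of the MVC cells (23 of 486, 3.02 to 7.02) had a Sfrp2 UMI, and these intervals overlapped. Sfrp4 stood at 5.80 CPM in DMSO and 17.0 in MVC in the same cells (ratio 2.93, 1.83 to 4.86), on 24 and 74 UMIs. Its ratio was 7.07 in cells thinned to 2000 UMIs, where very few tenocyte-like DMSO cells had a Sfrp4 UMI. At that depth 35 of the 40 kept DMSO cells with a Sfrp4 UMI were FAP-like.

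**Figure D2:**
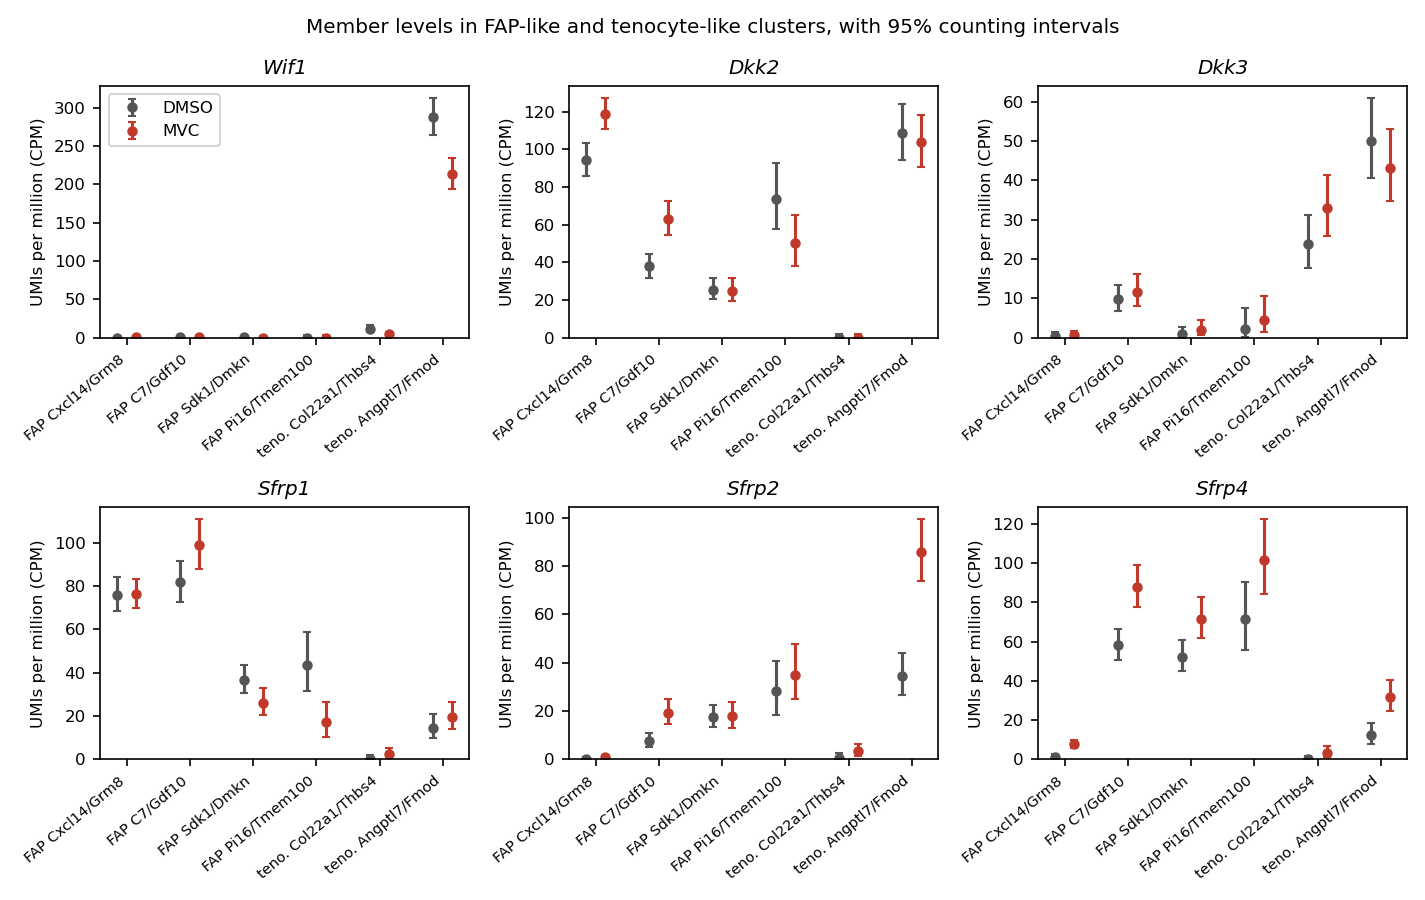
Level of 6 antagonists in CPM in the 4 FAP-like and 2 tenocyte-like clusters, with points for the DMSO and MVC libraries and bars for exact 95% Poisson intervals. Sfrp4 was higher in MVC in each FAP-like cluster, Wif1 was lower in both tenocyte-like clusters, and Sfrp1 was lower in the Sdk1/Dmkn and Pi16/Tmem100 clusters.

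Frzb, also known as secreted frizzled-related protein 3, was scarce, with 50 UMIs in 41 DMSO cells and 24 UMIs in 21 MVC cells. Its highest level was in Schwann-like cells, at 29.0 CPM in DMSO (17 UMIs, 16.9 to 46.4) and 13.2 in MVC (9 UMIs, 6.02 to 24.98). Pericyte-like cells, the mural cells of small vessels, held 9 UMIs in DMSO and 2 in MVC. The Schwann-like ratio was 0.454 (0.178 to 1.08), a difference not detectable at this depth, while over all kept cells it was 0.524 (0.308 to 0.868).

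Dkk2 was mainly a FAP transcript, with 747 of 1056 UMIs in DMSO and 1123 of 1491 in MVC from FAP-like cells. Among the FAP-like clusters, and unlike Sfrp4, it was highest in Cxcl14/Grm8, at 94.4 CPM in DMSO and 119 in MVC (ratio 1.26, 1.12 to 1.42). The C7/Gdf10 cluster stood at 37.8 CPM in DMSO and 63.1 in MVC (ratio 1.67, 1.34 to 2.09), and Sdk1/Dmkn at 25.5 and 24.8. The Pi16/Tmem100 cluster went the other way, with 73.6 CPM in DMSO and 50.1 in MVC (ratio 0.680, 0.470 to 0.979). The class ratio was 1.41 (1.29 to 1.55), and it was 1.25 with clusters weighted as in DMSO, the Cxcl14/Grm8 cluster being larger in MVC. At a finer resolution the difference within that cluster lay in a subcluster led by Rtl4 and Cxcl14 (163 and 305 cells), with 141 CPM in DMSO and 203 in MVC (ratio 1.44, 1.24 to 1.69), while the subcluster led by Cxcl14 and Smoc2 stood at 72.6 and 61.9 CPM (ratio 0.853, 0.701 to 1.04).

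Among endothelial cells Dkk2 marked arteries. The EC-like Cytl1/Igf2 cluster, which carried the arterial markers Gja5, Sema3g and Stmn2, held 74 of 77 EC-like UMIs in DMSO and 116 of 120 in MVC, at 43.1 and 69.1 CPM (ratio 1.60, 1.19 to 2.18). The UMIs came from 27 of 276 and 32 of 272 cells, and without the 3 highest cells of each library the ratio was 1.34. The ratio over all EC-like cells was 2.03 (1.51 to 2.74), but 1.63 with clusters weighted as in DMSO and 1.43 in cells thinned to 2000 UMIs. The arterial cluster was 276 of 2219 EC-like cells in DMSO and 272 of 1892 in MVC.

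In tenocyte-like cells Dkk2 did not follow Wif1 or Sfrp2. All of its UMIs in this class came from the Angptl7/Fmod cluster, where it stood at 109 CPM in DMSO and 104 in MVC (ratio 0.956, 0.788 to 1.16). No Dkk2 UMI was found in the 239 and 283 cells of the Col22a1/Thbs4 cluster. In the Angptl7/Fmod cells of these libraries Wif1 was thus lower in MVC, Sfrp2 was higher (ratio 2.49, 1.87 to 3.35), and the interval of the Dkk2 ratio included 1.

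Dkk3 was highest in perineurial-like cells, which form the sheath around nerve bundles, at 54.2 CPM in DMSO (40 UMIs, 38.7 to 73.8) and 86.7 in MVC (42 UMIs, 62.5 to 117). These UMIs came from 19 of 85 and 19 of 72 cells. The ratio was 1.60 (1.01 to 2.53), and it was 3.98 in cells thinned to 2000 UMIs, where 7.06% (6 of 85) and 23.0% (14 of 61) of cells had a Dkk3 UMI. Unlike most members, Dkk3 was present in both tenocyte-like clusters, at 49.9 and 43.1 CPM in Angptl7/Fmod and at 23.7 and 33.0 in Col22a1/Thbs4. The tenocyte-like class held 149 of 285 UMIs in DMSO and 165 of 293 in MVC, and its ratio was 1.054 (0.839 to 1.32). FAP-like cells, at 3.36 and 3.67 CPM, were above the 0.583 and 0.759 CPM of EC-like cells. They were near the 3.82 and 2.81 CPM of the B cell-like, T/NK-like and neutrophil-like cells, but most Dkk3 UMIs of that pool were in T/NK-like cells. Most FAP-like Dkk3 UMIs were in the C7/Gdf10 cluster, with 9.72 and 11.6 CPM.

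The Angptl7/Fmod tendon cluster was not uniform in its antagonists. At a finer resolution of the clustering, chosen as an alternative and inspected here because members were unevenly shared, it divided into 3 subclusters of 366, 60 and 44 cells. The largest (Angptl7/Bmpr1b) held 480 of the 559 Wif1 UMIs in DMSO and 405 of 450 in MVC, and nearly no Sfrp1 (4 and 2 UMIs). The smallest (Pappa2/Kcnip4), which also carried Tnc and Lox among its leading genes, was the reverse. Wif1 was at 9.11 and 42.1 CPM in its 20 DMSO and 24 MVC cells, against 319 and 239 CPM in the largest subcluster.

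Those 44 cells held a high concentration of 4 other members. Dkk2 was at 488 CPM in DMSO and 413 in MVC, Sfrp1 at 109 and 164, Sfrp2 at 119 and 316, and Sfrp4 at 50.1 and 110. They made up 8.97% of the DMSO and 9.72% of the MVC cells of the cluster, so their share was alike in the libraries. Sfrp2 was higher in MVC in the Pappa2/Kcnip4 subcluster (26 and 75 UMIs, ratio 2.67, 1.69 to 4.34) as well as in the largest one (31 and 100 UMIs in 14 and 19 cells, ratio 2.86, 1.90 to 4.43). Wif1 was lower in the largest subcluster (ratio 0.749, 0.654 to 0.856) and in the one of 60 cells (0.564, 0.367 to 0.852). That subcluster, led by 1700024B18Rik and Gm10635, differed from the others in Sfrp2 (10 and 6 UMIs, ratio 0.745, 0.222 to 2.26) and in Dkk2, which had 24 UMIs in DMSO and 4 in MVC (ratio 0.207, 0.0522 to 0.602). In the largest subcluster Dkk2 was at 53.2 CPM in DMSO and 69.1 in MVC (ratio 1.30, 0.968 to 1.75). The summed level of 5 erythroid markers in tenocyte-like cells was 8.45 CPM in DMSO and 279 in MVC, that of 12 FAP markers 17310 and 16860 CPM, and their part in these ratios was not tested.

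**Figure D3:**
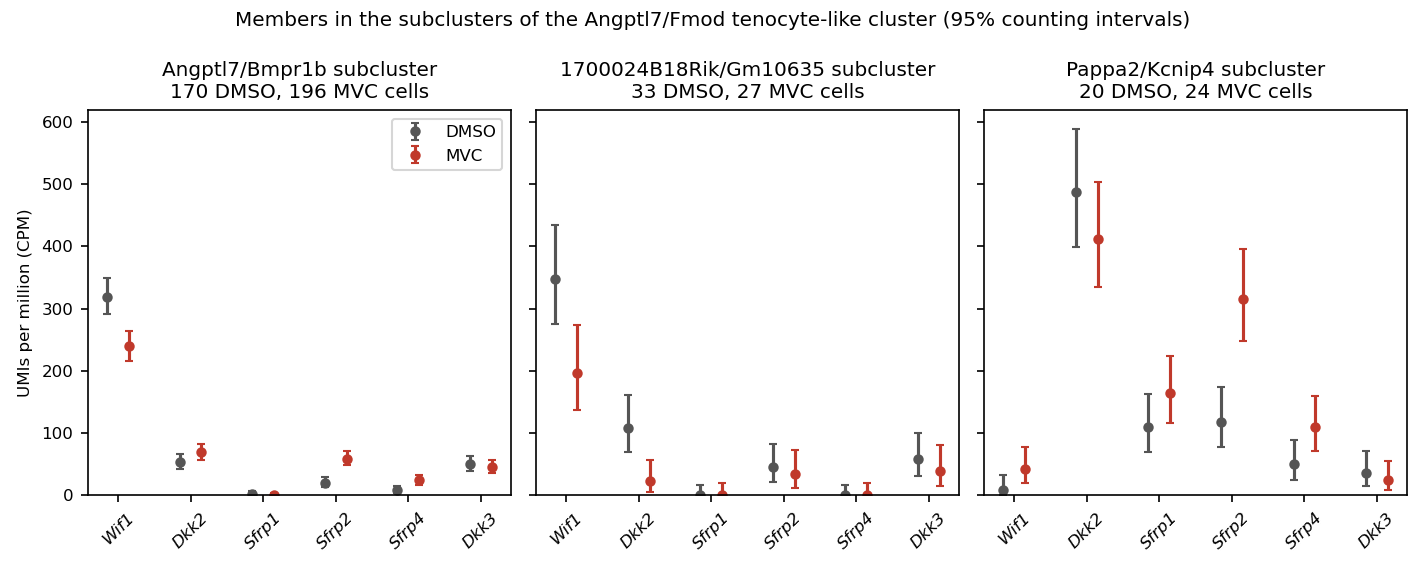
Level of 6 antagonists in CPM in the 3 subclusters of the tenocyte-like Angptl7/Fmod cluster, with points for DMSO and MVC and bars for exact 95% Poisson intervals. Wif1 was high in the subclusters of 366 and 60 cells, and Dkk2, Sfrp1, Sfrp2 and Sfrp4 were high in the Pappa2/Kcnip4 subcluster of 44 cells.

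The share of single cells in which antagonists were found together depended on depth. At 2000 UMIs per cell, 22.1% of FAP-like cells in DMSO and 24.2% in MVC had a UMI of any member, and 1.95% and 3.30% had UMIs of 2 members. In the Angptl7/Fmod cluster 45.8% and 41.9% had any member, 8.80% and 8.47% had 2, and 1.39% and 3.39% had 3 or more. In B cell-like, T/NK-like and neutrophil-like cells the share with any member at this depth was 1.30% (6 of 460) and 2.22% (4 of 180). With all UMIs, 13.2% and 13.4% of FAP-like cells had 2 members, and 2.47% and 2.11% had 3 or more. In the Angptl7/Fmod cluster these unthinned shares were 19.7% and 22.7% for 2 members, and 12.1% and 10.9% for 3 or more.

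Pairs were uneven within the Angptl7/Fmod cluster. With all UMIs, Sfrp2 and Dkk2 were found together in 16 of 223 DMSO cells and 17 of 247 MVC cells, where the product of their shares would give 5.83 and 8.05 cells. These products take the cluster as uniform, while both genes were concentrated in the Pappa2/Kcnip4 subcluster. Of its 20 DMSO and 24 MVC cells, 7 and 16 had a Sfrp2 UMI and 11 and 18 a Dkk2 UMI. Pairs within subclusters were not counted. Wif1 and Sfrp2 were together in 13 and 15 cells, close to the products of 12.2 and 16.3. At 2000 UMIs per cell, in MVC, where each gene had at least 20 positive cells, Sfrp2 and Dkk2 were together in 8 cells (product 2.29) and Wif1 and Sfrp2 in 1 cell (product 4.15). In the Cxcl14/Grm8 FAP-like cluster Sfrp1 and Dkk2 were together in 56 of 466 and 95 of 731 cells, above the products of 43.5 and 69.5. At 2000 UMIs per cell this pair was found in 7 and 16 cells, with products of 6.72 and 12.9.

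For the comparison of MVC with DMSO across genes, a gene was counted as past the size threshold when its CPM ratio exceeded 1.5-fold and it had at least 100 UMIs in the class over both libraries. Of all genes tested, 9.16% in FAP-like cells were higher in MVC and 2.31% lower, and the corresponding shares were 6.74% and 4.07% in tenocyte-like cells, 7.39% and 2.94% in EC-like cells, 8.64% and 6.29% in Schwann-like cells, and 14.6% and 11.2% in perineurial-like cells. Of the 7 members, 4 passed the UMI minimum in FAP-like cells (Sfrp1, Sfrp2, Sfrp4 and Dkk2) and none of them was past the threshold, with a median log2 ratio of 0.32 against 0.13 over the 10907 genes tested. In tenocyte-like cells 1 of 4 (Sfrp2) was past it, with Wif1, Dkk2 and Dkk3 below. In EC-like cells the single member tested, Dkk2, was past it, in Schwann-like cells the single member tested, Sfrp1, was not, and no member reached 100 UMIs in perineurial-like cells.

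**Figure D4:**
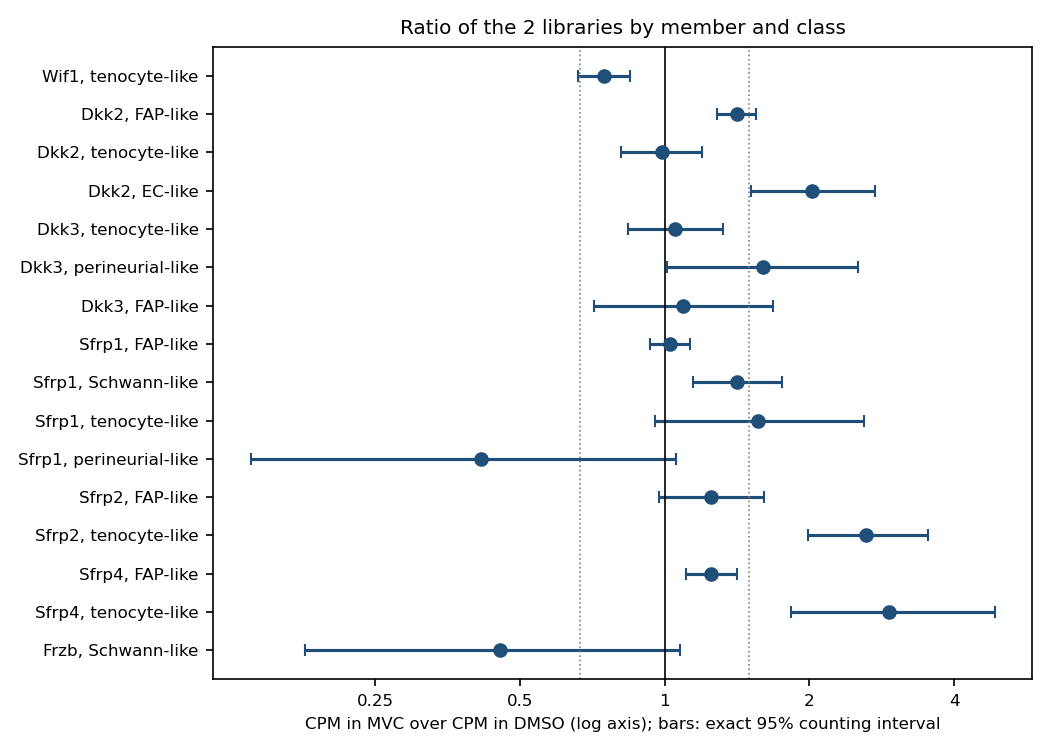
Ratio of CPM in MVC over DMSO on a log axis for members in the classes that held them, with exact 95% counting intervals, a solid line at 1 and dotted lines at 1.5-fold in either direction. Sfrp2 and Sfrp4 in tenocyte-like cells and Dkk2 in EC-like cells lie above the upper dotted line, and Wif1 in tenocyte-like cells lies between 1 and the lower one. Dkk3 in perineurial-like (1.60, 1.01 to 2.53) and Sfrp1 in tenocyte-like cells (1.56, 0.957 to 2.60) also lie above the upper line. Sfrp1 in perineurial-like (0.415, 0.138 to 1.06) and Frzb in Schwann-like cells (0.454, 0.178 to 1.08) lie below the lower one.

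Of the other pathway genes tested in FAP-like cells (7 ligands, 13 receptors, 2 potentiators and 4 targets or feedback genes), Wnt5a and Nkd1 were past the threshold, both higher in MVC. Of all genes tested there, 9.16% were higher and 2.31% lower. Larger shares of the short receptor list were past it in tenocyte-like and EC-like cells, as given below. Among 19 Wnt ligands, 7 were tested in FAP-like cells and 1 was past the threshold, Wnt5a, a ligand mostly linked to non-canonical signalling, at 22.5 CPM in DMSO and 36.8 in MVC (ratio 1.64, 1.41 to 1.90). Wnt11 and Wnt9a, the other leading ligands, had ratios of 0.957 and 0.954 there. The median log2 ratio of the 7 ligands was -0.07.

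Of 18 Wnt receptors and co-receptors, 13 were tested in FAP-like cells and none was past the threshold in either direction, with a median log2 ratio of 0.01. Ror1, a receptor of Wnt5a, and Lrp6, a co-receptor that Dickkopf proteins bind, had FAP-like ratios of 1.20 and 0.979. In tenocyte-like cells 2 of 12 were higher (Lrp5 with a ratio of 1.56 and Ror2 with 1.72) and 2 lower (Fzd5 with 0.653 and Fzd8 with 0.648). In EC-like cells 3 of 10 were higher, Fzd6 with a ratio of 1.61, Ror1 with 1.66 and Ror2 with 2.06. In Schwann-like cells 1 of 3 was higher (Lrp6, 33 and 74 UMIs, ratio 1.92), and in perineurial-like cells none of 4 was past the threshold. Of all genes tested in tenocyte-like cells, 6.74% were higher and 4.07% lower. The share of all genes higher in MVC was 7.39% in EC-like and 8.64% in Schwann-like cells.

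Potentiators of Wnt signalling and target genes followed. Of 8 potentiators 2 were tested in FAP-like cells, with neither past the threshold, and 2 in perineurial-like cells, where both were higher in MVC: Rspo3, a ligand that stabilises Wnt receptors, with 45 and 67 UMIs (ratio 2.27) and its receptor Lgr4 with 68 and 77 (ratio 1.72). Of 10 targets and feedback genes, 4 were tested in FAP-like cells and 1 was higher, Nkd1, an intracellular inhibitor induced by Wnt signalling, with 68 and 134 UMIs (ratio 1.85). Apcdd1, an inhibitor at the cell membrane, was the 1 gene of this list tested in perineurial-like cells, with a ratio of 2.02. Of all genes tested, 14.6% were higher in MVC in perineurial-like and 9.16% in FAP-like cells. Lef1, a transcription factor of the pathway, was too scarce to compare in FAP-like cells (3 and 4 UMIs), and 1065 of 1169 Lef1 UMIs in DMSO and 126 of 165 in MVC came from T/NK-like cells.

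Of the 7 other secreted antagonists, Sfrp5 was the one with most UMIs and was again a nerve-sheath gene. It led the perineurial-like cluster, at 1072 CPM in DMSO and 1106 in MVC (ratio 1.03, 0.923 to 1.15). In Schwann-like cells it was at 349 and 192 CPM (ratio 0.548, 0.437 to 0.686), on 205 and 131 UMIs, the opposite direction to Sfrp1 in that class. The difference between these 2 genes was not tested.

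The genes whose pattern was most like that of each member were named from Pearson correlations of log2(CPM + 10) over 48 points, 24 clusters in 2 libraries, among 13095 genes. Points of 1 library share depth, and these correlations carry no test. Wif1 was most like Gm10635, Gm765 and S100a5 (r of 0.89 to 0.90), and Sfrp1 like Rasgef1c, Efs and Lgi4 (0.88 to 0.89). Sfrp2 was most like Anxa8 (0.94), Gm765 (0.87) and Col14a1 (0.86), and Sfrp4 like Col14a1 (0.94), Anxa8 (0.87) and Pcolce2 (0.86), so that 2 of the 3 genes were common to Sfrp2 and Sfrp4. Dkk2 was most like Scara3 (0.82), 1700036A12Rik and Ccn5 (0.76 each), and Dkk3 like Homer2, Olfml3 and Egfl6 (0.83 each). Among members the closest pair was Sfrp2 and Sfrp4 (r = 0.82), and Wif1 and Sfrp1 had an r of 0.06. Frzb had too few UMIs for this comparison.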

How the data were processed

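The authors deposited raw counts (UMIs of each gene in each barcode, not normalised) for 1 DMSO and 1 MVC library. The submitters' processing notes name Cell Ranger 7.0.0, Seurat 5.0.1 and mm10. Which annotation was used, and whether intronic reads were counted, was not given in the sources used here. Groups were taken from the treatment label. Some genes and 1 small cluster are not reported here.

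Barcodes were kept when they had 500 genes or more and a mitochondrial share not above 10% of UMIs. Counts were scaled to 10000 per cell and log-transformed, and clustered on 30 principal components of 2000 variable genes (20 neighbours, Leiden resolution 1, no integration) with scikit-learn 1.9.0, python-igraph 0.11.9 and leidenalg 0.10.2. The members and 62 other Wnt genes were left out of the variable genes. A cluster was named when at least 3 markers of a class were raised by log2 1 and detected in 20% of its cells, with a margin of 0.5 over other classes that met this. That reading of the margin, and leaving unnamed a cluster led by markers of another class, were chosen after the data were seen. Doublets were scored against simulated ones, and the cells with the highest scores were called. The number called was set beforehand at 0.8% per 1000 cells, which gave 4.34% and 4.36% of cells and is not a measured rate. Called cells stayed in the reported values, and no correction for free RNA was made.

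UMIs were summed within each class or cluster of a library and expressed per 1000000 UMIs of those cells (CPM). Levels carry exact Poisson, shares exact Clopper-Pearson and ratios exact conditional 95% intervals (scipy 1.17.1), and all cover counting error only. A count of 0 allows 3 counts. With 1 library per group no test was run. The code for ratios and their intervals was checked on simulated counts with known folds. Genes named beyond the 7 members were those of the Wnt lists past 1.5-fold with at least 100 UMIs in a class, the 3 of each list with most UMIs, and the 3 most like each member (at least 200 UMIs, clusters with at least 20 cells in each library). The members, lists and rules were chosen with earlier results of these data known. Positions came from GENCODE vM21 (GRCm38). Alternatives covered the cell filter, scaling, thinning to 2000 or 1000 UMIs, doublets, clustering and low counts.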

Additional observations from a re-analysis of the deposited data

Results flagged for a closer look

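Sfrp1 and Dkk2 each differed in direction between clusters of the same libraries, with counting intervals that excluded 1 on both sides. Sfrp1 was higher in MVC in the Cadm2/Chl1 and Gm20754/Grik2 Schwann-like clusters (ratios of MVC over DMSO of 1.94 and 1.30) and in the C7/Gdf10 FAP-like cluster (1.21). It was lower in the Sdk1/Dmkn and Pi16/Tmem100 FAP-like clusters (0.709 and 0.390). Dkk2 was higher in the Cxcl14/Grm8 and C7/Gdf10 FAP-like clusters (1.26 and 1.67) and in the arterial EC-like Cytl1/Igf2 cluster (1.60), and lower in the Pi16/Tmem100 FAP-like cluster (0.680). With 1 library per group the difference between these ratios was not tested. Without the 3 cells with most UMIs of the gene in each library, the Pi16/Tmem100 ratios were 0.306 for Sfrp1 and 0.695 for Dkk2. The C7/Gdf10 ratio of Sfrp1 was then 1.08, beside a median of 1.09 over all genes tested in FAP-like cells.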

How the results depend on the processing

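No paired analysis was possible because each group is 1 library, and no replicate could be left out. For 16 ratios of a member in a class, 189 alternative values were computed, of which 181 stayed within the counting interval of the reported ratio and 8 did not. No ratio whose interval excluded 1 changed direction. The log2 ratio of Sfrp4 in FAP-like cells (0.32) was 0.51 after thinning to 2000 UMIs, 0.51 without the 3 cells with most Sfrp4 UMIs and 0.59 with clusters weighted as in DMSO. That of Dkk2 in FAP-like cells (0.50) was 0.32 with clusters so weighted. The last 2 settings were chosen after seeing the data. For Dkk2 in EC-like cells the log2 ratio fell from 1.02 to 0.51 after thinning and to 0.58 as a mean over cells, and the other values that moved, Sfrp4 in tenocyte-like and Dkk3 in perineurial-like cells, did so after thinning. The share of FAP-like cells with a Dkk2 UMI was higher in MVC by 2.96 points at 2000 UMIs and by 0.53 points at 1000 UMIs.

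The number of members past 1.5-fold went from 0 to 1 in FAP-like cells without a filter on low counts, and in tenocyte-like cells from 1 to 3 at 20 UMIs and 4 without a filter. The number of other Wnt genes past it went from 2 to 8 and 18 in FAP-like cells, and to 4 when scaled by the median ratio, and from 4 to 8 and 24 in tenocyte-like cells. With a pseudocount of 1 CPM, the gene most like each member stayed the first named except for Dkk3 (Cdh11). Depth limits Frzb (74 UMIs in all) and every value in the 226 Schwann-like and 157 perineurial-like cells.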

Other observations

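Some members appeared outside their usual classes on very few cells. In the SMC-like Acta2/Myh11 cluster Dkk2 had no UMI in 104 DMSO cells and 12 UMIs in MVC, all in 1 of 96 cells, in a cluster of which 39.0% of cells were called as doublets. In B cell-like cells Sfrp4 had no UMI in 205 DMSO cells and 7 UMIs in 3 of 106 MVC cells. In T/NK-like cells Dkk3 was at 6.92 CPM in DMSO (12 UMIs in 5 of 195 cells) and 5.90 in MVC (3 UMIs in 2 of 60 cells), beside 0.583 and 0.759 CPM in EC-like cells. The barcodes removed by the filter held between 0 and 6 UMIs of each member in DMSO and between 0 and 13 in MVC, the highest being Dkk2 in both. The antisense gene Gm26771 had 19 and 34 UMIs in tenocyte-like and 32 and 24 UMIs in FAP-like cells.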
